A study of Mus musculus with 8 samples.

Results

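The phase II conjugation enzymes attach glucuronic acid, sulfate or glutathione to drugs, hormones, bile pigments and reactive metabolites, and most of that work in the body is done by hepatocytes. The genes described here were taken by a rule on symbols alone, but they were chosen with earlier results of these data known. The rule took every UDP-glucuronosyltransferase gene of the Ugt1, Ugt2 and Ugt3 families and every Sult sulfotransferase gene. It also took every glutathione S-transferase gene of the Gsta, Gstk, Gstm, Gsto, Gstp, Gstt and Gstz classes, and every Mgst microsomal transferase gene. That gave 60 of the 17276 genes listed: 20 UGT, 16 SULT, 21 GST and 3 MGST genes. The study set 4 RNA-seq libraries of hepatocytes exposed to shear stress, the drag of a moving fluid on cells, against 4 libraries of hepatocytes kept static. All libraries of both groups came from male wild-type C57BL/6N mice aged 6 to 8 weeks. The labels give neither the strength nor the duration of the stress, nor how the cells were kept, nor whether the replicates of a group came from separate animals or preparations, so p-values measure only the spread between these libraries, which may be technical.

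UGT enzymes sit in the endoplasmic reticulum and transfer glucuronic acid from UDP-glucuronate. SULT enzymes are cytosolic and transfer sulfate from the activated donor PAPS. GST enzymes join glutathione to electrophiles, and the MGST enzymes do so within membranes. In liver, many of these genes are driven by hepatocyte factors such as HNF4 and C/EBP, and many also answer to foreign compounds through the receptors AHR, CAR and PXR and to oxidative stress through NRF2.

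The libraries held between 16225843 and 16732203 estimated read counts under shear stress and between 15067056 and 17935566 in static cells. Values below are CPM, counts relative to the library total, scaled with TMM factors unless TPM, which is per length, is named. A gene was called when its Benjamini-Hochberg adjusted p in the quasi-likelihood test of edgeR, taken over all 11747 genes tested, was under 0.05. Libraries with the same replicate number in the 2 groups deviated together, so a fit with that number as a block (the paired fit) was also made. A limit of 3 counts in 1 library came to between 0.157 and 0.227 CPM.

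Of the 60 genes, 46 passed the filter on low counts. Under shear stress 16 of the 46 fell and 0 rose, where 23.7% of all tested genes fell and 24.9% rose. The 16 were 9 of 17 tested UGT genes, 1 of 7 SULT genes, 5 of 20 GST genes and 1 of 2 MGST genes. The log2 difference, shear stress over static, was below 0 for 41 of the 46 and above 0 for 5. Its median was -0.48 over the 46, against -0.01 over all tested genes. Abundant genes as a whole lay lower: of 24 members with a mean of at least 50 CPM 11 fell and 0 rose, where 36.7% of all tested genes of that level fell and 13.2% rose, with a median of -0.21. In the paired fit 32 members fell and 2 rose (Ugt1a7c and Gstp3), where 31.0% of all tested genes fell and 30.1% rose. Among the 24 of at least 50 CPM the paired fit placed 22 lower and 0 higher, where 49.0% of all tested genes of that level fell and 17.1% rose. DESeq2 placed 21 members lower and 0 higher, where 23.0% of all genes to which it gave an adjusted p fell and 22.0% rose. With library totals in place of TMM factors, which moves the median of all tested genes to 0.22, 6 members fell (Ugt2b34, Ugt2b35, Ugt2b36, Ugt2b38, Gstp2 and Sult2a8) and Gstp3 rose, where 13.1% of all tested genes fell and 35.4% rose.

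The other 14 genes were Gsto2, Mgst2, Sult2a2, Sult2a5, Sult2a6, Sult2a7, Sult2b1, Sult3a2, Sult4a1, Sult6b1, Sult6b2, Ugt1a2, Ugt2a1 and Ugt2a2. None of them exceeded 10.9 counts in any library. Without the filter 0 of the 14 were called by edgeR, and DESeq2 gave 2 of them an adjusted p and called 0. Sult2a7, with 0, 1, 1 and 0 counts in shear stress replicates 1 to 4, against 2, 3, 3 and 2 counts in static replicates 1 to 4, had adjusted p = 0.0623 without the filter and 0.136 in DESeq2. It was called lower in the FPKM alternative (adjusted p = 0.0162), which tested none of the other 13.

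**Figure D1:**
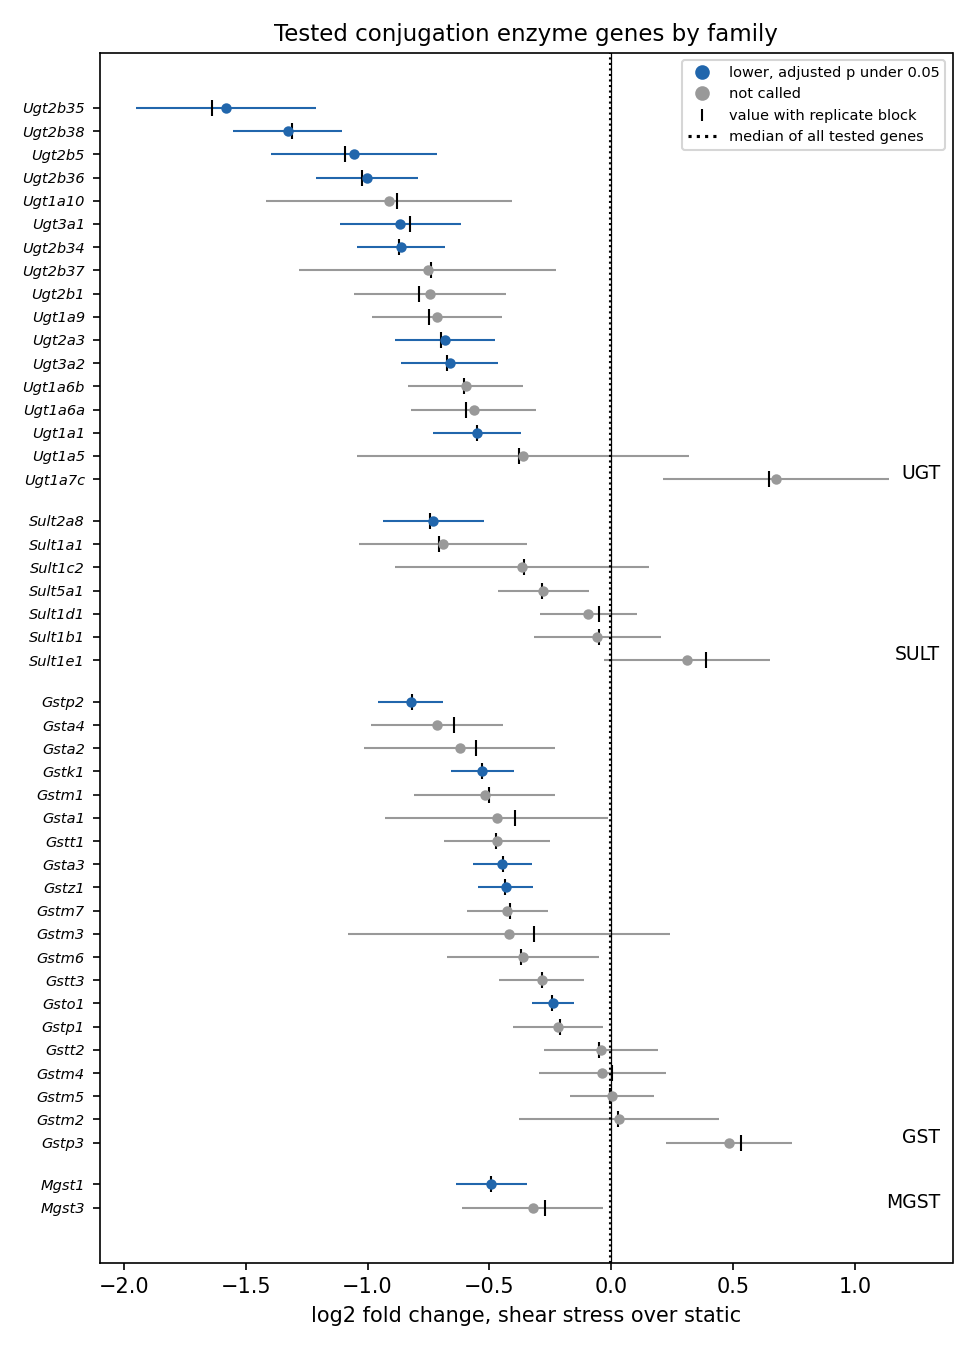
Log2 fold change, shear stress over static, of each of the 46 tested conjugation genes by family, with its standard error as a bar and the paired fit's value as a black tick. Blue points mark the 16 genes called lower in the unpaired fit and grey points the 30 not called, and the UGT genes reach furthest down, to -1.58 for Ugt2b35.

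Most of the transcripts of these enzymes belonged to a few genes. Gstp1 took 29.1% of all counts of the 60 genes, Gstm1 18.6%, Mgst1 13.2%, Gsta1 6.0% and Ugt2b5 5.24%. On the TPM scale, which allows genes to be compared, Gstp1 averaged 7854 ± 1108 under shear stress and 7847 ± 1327 in static cells (SD, n = 4 each). Mgst1 averaged 2223 ± 316 TPM under shear stress and 2674 ± 267 TPM in static cells. Ugt2b5, the most abundant UGT gene, averaged 294 ± 130.2 TPM under shear stress and 518 ± 149 TPM in static cells. Summed over the 60 genes, the level was 7994 ± 1585 CPM under shear stress and 11209.6 ± 2546 CPM in static cells, a ratio of 0.71. The ranges of the 2 groups overlapped, and within each of the 4 replicate numbers the shear stress sum was the lower one. As a share of all counts with no scaling between libraries, the sum was 0.86% ± 0.15 under shear stress and 1.03% ± 0.21 in static cells. In RNA from many cells, fewer cells expressing a gene and less of its RNA per cell cannot be told apart.

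Of the Ugt2 and Ugt3 genes, whose enzymes conjugate steroids, bile acids and many drugs, 8 of the 10 tested fell, with a median log2 difference of -0.86. Their summed level was 1077, 719.5, 1475 and 851 CPM in shear stress replicates 1 to 4, against 2473, 1492, 2398 and 1886 CPM in static replicates 1 to 4. On this scale every shear stress library lay below every static library, and the ratio of the means was 0.50. In TPM the ratio was 0.59 and as a share of counts 0.58, and on both scales shear stress replicate 3 lay above static replicate 2. The sum does not depend on how reads were divided between near-identical genes of the cluster.

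Ugt2b35, Ugt2b38, Ugt2b5 and Ugt2b36, the UGT genes with the largest called differences, share a stretch near their start sites, and their promoters are shown for that reason. Each is the 250 bases before the start site given by RefSeq (GRCm38.p6), written along the gene's strand. Capitals mark the 13-base string GTTATANTTTAAC, which was searched on both strands. The windows are chr5:87000610-87000859 on the plus strand for Ugt2b35, and on the minus strand chr5:87424204-87424453 for Ugt2b38, chr5:87140341-87140590 for Ugt2b5 and chr5:87092556-87092805 for Ugt2b36.
Ugt2b35: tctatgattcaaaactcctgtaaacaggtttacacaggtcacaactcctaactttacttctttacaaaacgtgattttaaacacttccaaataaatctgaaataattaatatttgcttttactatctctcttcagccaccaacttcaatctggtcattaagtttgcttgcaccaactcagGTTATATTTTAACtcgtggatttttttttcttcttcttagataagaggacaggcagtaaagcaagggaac
Ugt2b38: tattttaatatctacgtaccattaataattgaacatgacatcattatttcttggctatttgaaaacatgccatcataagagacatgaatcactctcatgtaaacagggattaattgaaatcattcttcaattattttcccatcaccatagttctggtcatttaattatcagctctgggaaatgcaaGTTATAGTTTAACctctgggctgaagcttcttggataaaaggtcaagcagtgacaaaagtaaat
Ugt2b5: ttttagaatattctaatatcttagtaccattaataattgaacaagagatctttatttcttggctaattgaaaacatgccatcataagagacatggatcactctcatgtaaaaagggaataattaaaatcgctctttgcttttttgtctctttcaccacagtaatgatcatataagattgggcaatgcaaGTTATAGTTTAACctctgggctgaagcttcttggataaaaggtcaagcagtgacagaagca
Ugt2b36: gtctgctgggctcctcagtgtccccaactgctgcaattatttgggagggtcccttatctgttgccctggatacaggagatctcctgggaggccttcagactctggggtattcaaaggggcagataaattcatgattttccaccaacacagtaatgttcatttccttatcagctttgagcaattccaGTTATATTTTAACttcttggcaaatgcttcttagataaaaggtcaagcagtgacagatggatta

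All 4 hold this string, whose first base lies 70, 64, 61 and 64 bases before the start of Ugt2b35, Ugt2b38, Ugt2b5 and Ugt2b36. The string was taken from the promoters themselves, as the bases shared by 5 Ugt2b genes near their starts, so its presence in them is no finding. In all it occurs in 6 of 27025 genes with a promoter in the table (0.0222%), and 5 of the 6 are Ugt2b5, Ugt2b35, Ugt2b36, Ugt2b37 and Ugt2b38. Over the whole window, Ugt2b5 and Ugt2b38 are 84.8% identical, and the other pairs among the 4 between 63.2% and 67.2%. A match is a likeness of letters and not a measured site, and Ugt2b37, which holds the string, did not pass the unpaired test.

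Ugt2b35 stood at 113, 51.9, 153 and 68.7 CPM in shear stress replicates 1 to 4, against 367, 159, 321 and 310.3 CPM in static replicates 1 to 4. Every shear stress library was below the lowest static one, and replicate 2 was the lowest library in both groups. The log2 difference was -1.58 ± 0.37, adjusted p = 0.00754 (edgeR), a level 2.99-fold lower under shear stress.

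Ugt2b38 had 9.32, 6.58, 10.7 and 8.49 CPM under shear stress, against 26.9, 15.9, 27.7 and 17.6 CPM in static cells, in the same order of replicates. The groups did not overlap (log2 difference -1.33 ± 0.22, adjusted p = 0.0012). Its open reading frame is 97.0% identical to that of Ugt2b5, and the counts of both were fractional in every library, so the split of reads between them is uncertain. Their summed level was 362, 194, 536 and 272 CPM under shear stress, against 915, 427, 892 and 620.1 CPM in static cells, a ratio of 0.478. In TPM the ratio was 0.565 and as a share of counts 0.558.

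Ugt2b5, the most abundant gene of the family, had 353, 188, 525 and 264 CPM in shear stress libraries, against 888, 411, 865 and 602 CPM in static libraries. Replicate 3 under shear stress lay above replicate 2 in static cells, so the groups overlapped, although within each replicate number the shear stress library was the lower one. The log2 difference was -1.06 ± 0.34, adjusted p = 0.0305, and 1.7e-05 was the adjusted p in the paired fit. Leaving out 1 library ended the call in 5 of 8 cases, 2 of them static libraries (replicates 1 and 3) and 3 under shear stress (replicates 1, 2 and 4), with adjusted p between 0.0592 and 0.082.

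Ugt2b36 had 111, 83.0, 151 and 87.1 CPM under shear stress, against 256, 168, 246 and 196 CPM in static cells (-1.0 ± 0.21, adjusted p = 0.00393). Ugt2b34 had 318, 199.8, 308 and 229 CPM under shear stress, against 605, 406, 475 and 431 CPM in static cells (-0.86 ± 0.18, adjusted p = 0.00373). For both genes all 4 shear stress libraries were lower than all 4 static libraries.

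The 3 other genes of these families that fell were Ugt2a3, Ugt3a1 and Ugt3a2, and in each of them the groups overlapped. Ugt2a3 had 56.7 ± 15.2 CPM under shear stress and 90.9 ± 17.3 CPM in static cells (SD, n = 4 each; -0.68 ± 0.21, adjusted p = 0.0214). Ugt3a1 and Ugt3a2, whose human counterparts use sugars other than glucuronic acid, differed by -0.87 and -0.66 (adjusted p = 0.017 and 0.0207). The call of Ugt2a3 was lost in 3 and that of Ugt3a2 in 2 of the 8 fits that left out 1 library, with adjusted p up to 0.0607 and 0.0546. Ugt2b1 (-0.74, adjusted p = 0.0749) and Ugt2b37 (-0.75, adjusted p = 0.265) passed in the paired fit alone (adjusted p = 5.78e-05 and 0.00152).

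**Figure D2:**
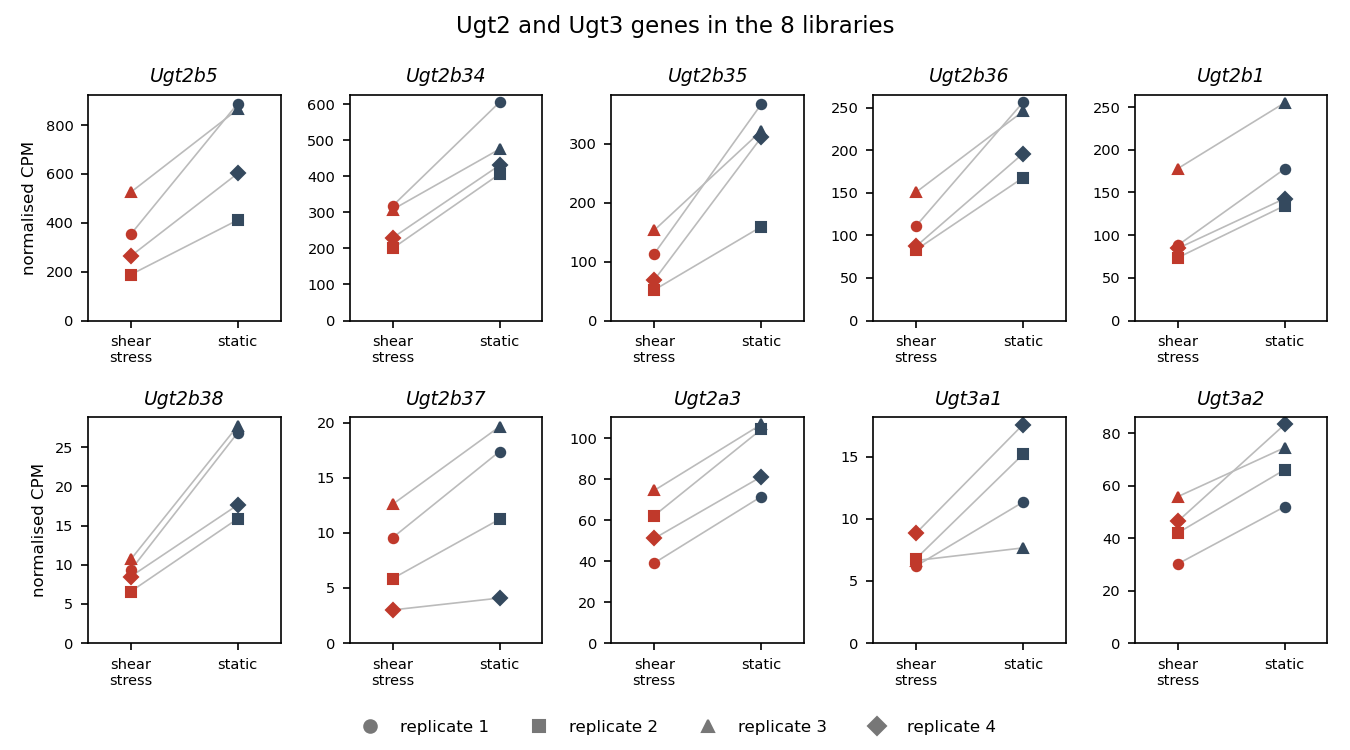
Normalised CPM of the 10 tested Ugt2 and Ugt3 genes in each library (linear axes from 0), with shear stress left of static, marker shapes for the 4 replicate numbers and grey lines joining libraries with the same number. In each of the 10 panels every shear stress point is lower than the static point of its number, with Ugt2b35 between 51.9 and 153 CPM under shear stress and between 159 and 367 CPM in static libraries.

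The Ugt1 genes are one locus. Each has a first exon of its own, joined to exons that all share, and their open reading frames end in at least 740 identical bases of between 1587 and 1608. Reads in the shared part were divided by estimation, and the sum over the locus is the firmer value. It was 390.2, 309, 553 and 352 CPM in shear stress replicates 1 to 4, against 625, 494, 777 and 506 CPM in static replicates 1 to 4, a ratio of 0.668 with overlapping groups. In TPM the ratio was 0.79 and as a share of counts 0.78, also with overlap.

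Ugt1a1, the enzyme that conjugates bilirubin, was the only Ugt1 gene of the 7 tested that fell in the unpaired fit. It had 173, 109, 163 and 139 CPM under shear stress, against 275, 171, 222 and 187 CPM in static cells. Shear stress replicate 1 lay above static replicate 2, and within each replicate number the shear stress library was lower. The log2 difference was -0.55 ± 0.18, adjusted p = 0.0298, and 4 of the 8 fits that left out 1 library no longer called the gene: those omitting static 1, static 3, shear stress 2 and shear stress 4, with adjusted p between 0.0618 and 0.074.

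The paired fit placed 5 more Ugt1 genes lower: Ugt1a5, Ugt1a6a, Ugt1a6b, Ugt1a9 and Ugt1a10, with unpaired differences between -0.91 and -0.36. Ugt1a7c had 2.55, 2.61, 1.10 and 4.98 CPM under shear stress, against 2.09, 1.34, 0.910 and 2.64 CPM in static cells, and differed the other way (0.67 ± 0.46, adjusted p = 0.255; 0.0396 as adjusted p in the paired fit). Ugt1a5 shows how far the replicate numbers carried these values. It had 32.6, 7.25, 61.4 and 25.7 CPM under shear stress, against 42.9, 9.89, 78.4 and 32.3 CPM in static cells. The 4 numbers ran in the same order in both groups, and they held 97.1% of the sum of squares of its log2 CPM. Its unpaired difference was -0.36 ± 0.68, adjusted p = 0.686, and the paired adjusted p was 0.00472.

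Among the sulfotransferases 7 of 16 genes could be tested and 1 fell. Sult2a8, which sulfates bile acids in mouse liver, had 25.7, 18.2, 26.7 and 35.0 CPM under shear stress, against 46.0, 33.6, 41.4 and 54.2 CPM in static cells. Shear stress replicate 4 lay above static replicate 2, and the log2 difference was -0.73 ± 0.21, adjusted p = 0.0161. Sult1a1, a phenol sulfotransferase, had 18.1, 32.5, 17.8 and 11.7 CPM under shear stress, against 30.2, 49.0, 31.0 and 19.1 CPM in static cells. Its replicate 2 was the highest library in both groups, and its difference (-0.69 ± 0.35, adjusted p = 0.127) passed in the paired fit alone (adjusted p = 0.000212).

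Sult1d1 had 31.2, 27.7, 26.8 and 27.3 CPM under shear stress, against 22.9, 36.9, 39.4 and 21.5 CPM in static cells, with overlapping groups (-0.09 ± 0.20, adjusted p = 0.719). Sult1e1, which inactivates oestrogens, differed by 0.31 (adjusted p = 0.476), and Sult1b1, Sult1c2 and Sult5a1 were below 6 CPM in every library and did not pass. The summed SULT level was 94.0, 99.0, 85.2 and 90.6 CPM under shear stress, against 112, 142, 126 and 112 CPM in static cells. On this scale the sums did not overlap. In TPM and as a share of counts they did, with a ratio of 0.88 on both.

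The GST genes held most of the conjugation transcripts and had a median log2 difference of -0.42, against -0.74 for the UGT genes, a contrast that was not tested. Of 20 GST genes 5 fell, and the summed level was 6810.0, 4181, 5766 and 4867 CPM in shear stress replicates 1 to 4, against 8777, 4628, 7821 and 6485 CPM in static replicates 1 to 4. The sums overlapped, and their means had a ratio of 0.78. In TPM the ratio was 0.94 and as a share of counts 0.91. On both of these scales shear stress replicate 2 lay above static replicate 2.

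All 3 tested genes of the kappa, omega and zeta classes fell. Gstk1, a mitochondrial and peroxisomal enzyme, had 26.4, 22.0, 29.3 and 24.5 CPM under shear stress, against 34.4, 33.9, 44.0 and 35.3 CPM in static cells, with no overlap (-0.53 ± 0.13, adjusted p = 0.00761). Gstz1, which also acts in tyrosine breakdown as maleylacetoacetate isomerase, had 78.4, 65.6, 75.9 and 59.4 CPM under shear stress, against 96.3, 86.1, 105 and 89.8 CPM in static cells, with no overlap (-0.43 ± 0.11, adjusted p = 0.0111). Gsto1, a thiol transferase, had 107, 94.6, 100.5 and 88.0 CPM under shear stress, against 119, 112, 114 and 115 CPM in static cells. Those groups were also apart, but the difference was -0.24 ± 0.09, adjusted p = 0.041, and its call was lost in 6 of 8 fits that left out 1 library, with adjusted p up to 0.134. The fall of Gsto1 depended on the scaling, at -0.016 with library totals in edgeR (adjusted p = 0.904). In TPM it averaged 155 ± 13.5 under shear stress and 157 ± 7.3 in static cells (SD), with overlapping groups. With library totals 0 of these 3 genes were called.

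In the alpha class, which detoxifies products of lipid peroxidation, 1 of 4 genes fell. Gsta3 had 235, 240.3, 242 and 189 CPM under shear stress, against 317, 335, 333 and 252 CPM in static cells, with every shear stress library below every static one (-0.45 ± 0.12, adjusted p = 0.0137). Gsta1 was spread widely by replicate number, at 817, 324, 307 and 461 CPM under shear stress, against 1273, 359, 405 and 606 CPM in static cells. Replicate 1 was the highest in both groups, and the difference was -0.47 ± 0.46, adjusted p = 0.423, with 0.00197 as adjusted p in the paired fit. Without static replicate 1 the unpaired difference of Gsta1 was 0.059. Gsta2, whose open reading frame is 97.5% identical to that of Gsta1, differed by -0.62 (adjusted p = 0.216) and Gsta4 by -0.71 (adjusted p = 0.053), and both passed in the paired fit (adjusted p = 0.000861 and 0.000746).

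None of the 7 mu class genes was called in the unpaired edgeR fit. Gstm1, the most abundant of them, had 1684, 964, 1997 and 1289 CPM under shear stress, against 2551, 1236, 2837 and 1878 CPM in static cells. Within each replicate number the shear stress library was lower, and the groups overlapped (-0.52 ± 0.29, adjusted p = 0.166; paired adjusted p = 8.74e-05). The other 6 lay between -0.43 for Gstm7 and 0.03 for Gstm2, and of them Gstm6 and Gstm7 passed in the paired fit (adjusted p = 0.00377 and 0.0196). Of the theta class, Gstt1 had 90.5, 49.4, 69.8 and 58.3 CPM under shear stress, against 122, 69.4, 96.8 and 82.2 CPM in static cells (-0.47 ± 0.22, adjusted p = 0.102; paired adjusted p = 0.000434), and Gstt2 and Gstt3 passed in neither fit.

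In the pi class, Gstp2 fell, and Gstp1 and Gstp3 were not called. Gstp1, the most abundant of all the conjugation genes, had 3253, 2153, 2509 and 2350.4 CPM in shear stress replicates 1 to 4, against 3549, 2100.2, 3343 and 2961 CPM in static replicates 1 to 4. The groups overlapped, and the difference was -0.22 ± 0.18, adjusted p = 0.348. In the paired fit the adjusted p was 0.037, and with library totals the unpaired difference turned to 0.0075. Gstp2 had 14.9, 17.9, 17.9 and 18.5 CPM under shear stress, against 36.6, 31.9, 27.5 and 26.3 CPM in static cells. Its groups were apart, and the difference was -0.82 ± 0.13, adjusted p = 0.00101. The open reading frames of Gstp1 and Gstp2 are 98.1% identical and both had fractional counts in every library, so part of the Gstp2 value rests on how reads were divided. The sum of both was 3268, 2171, 2527 and 2369 CPM under shear stress, against 3586, 2132, 3371 and 2988 CPM in static cells, a ratio of 0.856. In TPM the ratio was 0.997 and as a share of counts 1.002, and the groups overlapped on each scale. Gstp3 had 25.9, 22.4, 33.1 and 23.6 CPM under shear stress, against 12.1, 14.2, 28.5 and 20.5 CPM in static cells, and was the higher of the pair in every replicate number (0.48 ± 0.26, adjusted p = 0.148; paired adjusted p = 0.0134).

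The promoters of Gstp1 and Gstp2 are shown because the neighbouring copies differ in level and in call. They are 83.2% identical. Capitals mark matches to the string TGACNNNGC or TGAGNNNGC on either strand, letters of the antioxidant response element. NRF2 binds that element together with small MAF proteins. As above, a match is a likeness of letters, and binding was not measured. The windows are chr19:4037913-4038162 and chr19:4042222-4042471, both on the minus strand of GRCm38.p6, each being the 250 bases before the RefSeq start.
Gstp1: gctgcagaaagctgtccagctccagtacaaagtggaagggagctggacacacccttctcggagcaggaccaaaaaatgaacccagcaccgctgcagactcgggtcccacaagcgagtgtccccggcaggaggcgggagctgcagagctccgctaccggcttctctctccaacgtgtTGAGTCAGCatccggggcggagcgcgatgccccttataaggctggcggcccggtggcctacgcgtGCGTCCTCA
Gstp2: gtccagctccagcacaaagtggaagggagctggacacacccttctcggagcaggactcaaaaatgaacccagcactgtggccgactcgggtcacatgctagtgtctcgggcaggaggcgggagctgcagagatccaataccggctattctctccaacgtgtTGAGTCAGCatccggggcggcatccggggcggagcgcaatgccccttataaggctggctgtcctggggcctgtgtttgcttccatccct

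Both hold TGAGTCAGC, 74 bases before the start of Gstp1 and 89 before that of Gstp2, and the window of Gstp1 holds a second match on the other strand, 9 bases before its start. Such a match is present in 14 of 53 members with a promoter (8 of 19 GST, 3 of 13 SULT, 2 of 18 UGT and 1 of 3 MGST genes), or 26.4%, against 25.7% of all genes. The core GCGTG of the element bound by AHR is present in 10 of 53 members, against 30.9% of all genes. In 2 member promoters, matches to different strings overlapped.

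**Figure D3:**
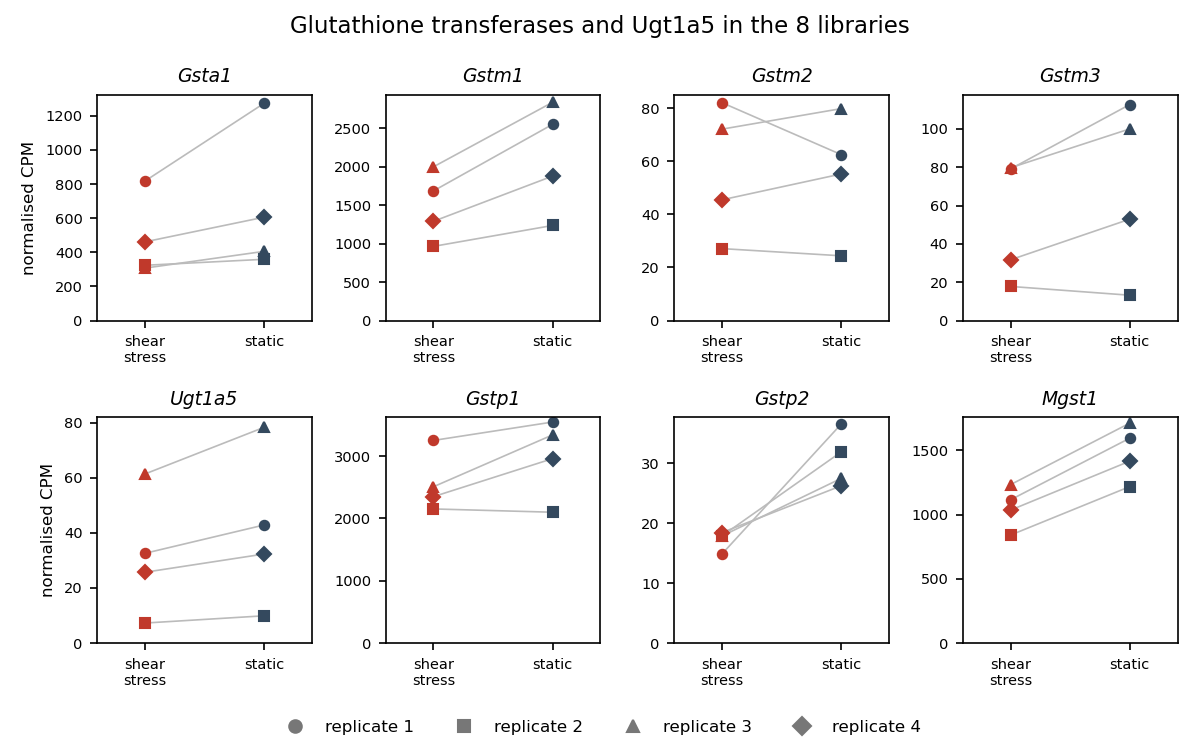
Normalised CPM of Gsta1, Gstm1, Gstm2, Gstm3, Ugt1a5, Gstp1, Gstp2 and Mgst1 in each library (linear axes from 0), with shear stress left of static, marker shapes for the 4 replicate numbers and grey lines joining libraries with the same number. Gstp2 lies between 14.9 and 18.5 CPM under shear stress and between 26.3 and 36.6 CPM in static libraries, while in Ugt1a5 and Gstm1 the replicates lie far apart and in one order in both groups.

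Of the microsomal enzymes, Mgst1, which protects membranes of the endoplasmic reticulum and mitochondria, had 1115, 840.0, 1233 and 1034 CPM under shear stress, against 1595, 1218, 1712 and 1416 CPM in static cells. Shear stress replicate 3 lay above static replicate 2, and the difference was -0.49 ± 0.15, adjusted p = 0.0195. It was no longer called when static replicate 3 or shear stress replicate 4 was left out (adjusted p = 0.0504 and 0.0511). Mgst3 differed by -0.32 (adjusted p = 0.381) and passed in neither fit.

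A large part of the spread in these genes followed the replicate number, whose meaning the labels do not give. The terms for the number, tested together in edgeR with the same adjustment, were called for 28 of the 46 tested members (14 UGT, 11 GST, 2 SULT and 1 MGST), where 11.4% of all tested genes were called. In log2 CPM the number held a median of 51.6% of the sum of squares of a member and the group 40.0%, against medians of 27.2% and 54.0% over all tested genes. The number held more than the group in 28 of 46 members, where this was so for 38.8% of all tested genes. The number has more levels than the group and so takes a larger share of pure noise. The shares of the members are therefore to be read beside those of all tested genes.

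Many members shared an order of the replicates. Replicate 2 was the lowest library in both groups for 23 of 46 members, 10 of them UGT and 11 GST genes, where this held for 11.8% of all tested genes. Replicate 3 was the highest in both groups for 16 members and replicate 1 for 10, where this held for 12.8% and 10.4% of all tested genes. Sult1a1 and Sult1e1 alone had replicate 2 highest in both groups. All 4 replicates came in the same order in both groups for 18 members, where this held for 13.6% of all tested genes. Within replicate numbers, the shear stress library was lower in all 4 pairs for 31 members and higher in all 4 for 2, where this held for 35.2% and 33.7% of all tested genes. Without regard to pairs, all shear stress libraries lay below all static libraries for 9 members and above them for 0, where this held for 21.5% and 23.7% of all tested genes.

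**Figure D4:**
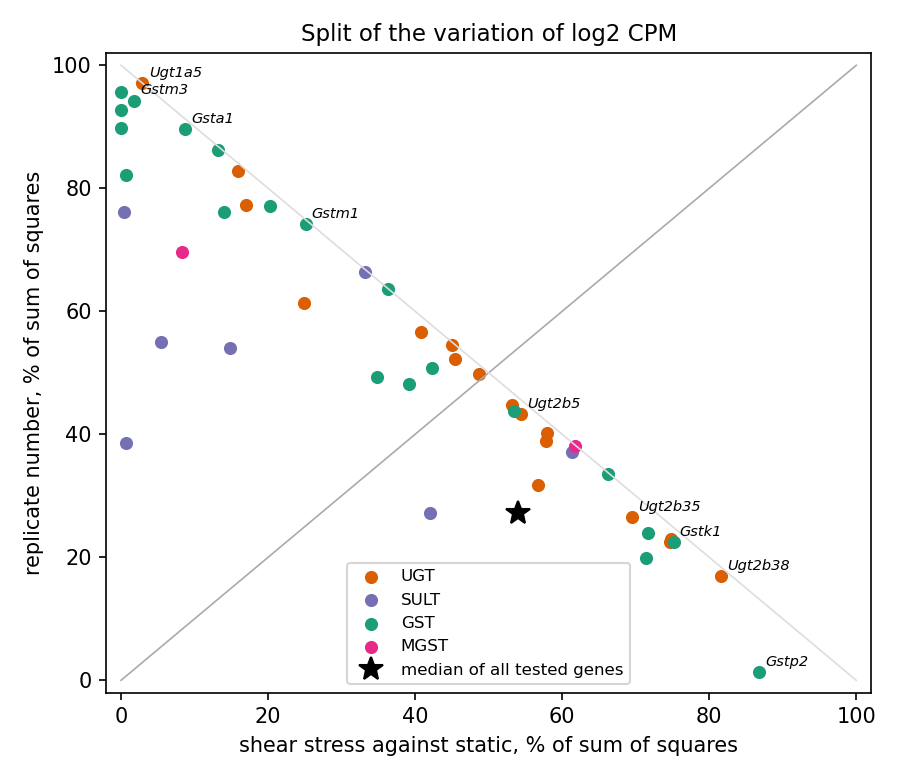
Percent of the sum of squares of log2 CPM that followed the replicate number (vertical axis) against the percent that followed the group (horizontal axis), 1 point for each of the 46 tested members, coloured by family, with a star at the medians of all tested genes. In 28 of 46 members the point lies above the diagonal of equal shares, up to 97.1% for Ugt1a5. The replicate number has more levels than the group, so pure noise would also lie above the diagonal on average.

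The supply of the cosubstrates is described from lists chosen by function. As the background to each of their counts, 23.7% of all tested genes fell and 24.9% rose, and in the paired fit 31.0% fell and 30.1% rose. No gene was analysed here under the symbols Impad1, Ggt5 and Sts of these lists. Of 8 tested genes for UDP-glucuronate, 3 fell and 1 rose (median log2 difference -0.34), and in the paired fit 4 fell and 2 rose, with Ugp2 lower (adjusted p = 5.16e-05) and Slc35d2 higher (adjusted p = 0.00959) there alone. Pgm1, which interconverts glucose phosphates, had 187, 155, 183 and 170.1 CPM under shear stress, against 233, 210.4, 273 and 231 CPM in static cells (-0.45 ± 0.10, adjusted p = 0.00657). Ugdh, the enzyme that makes UDP-glucuronate, had 443 ± 137 CPM under shear stress and 689 ± 71.4 CPM in static cells (SD, n = 4 each; -0.64 ± 0.20, adjusted p = 0.024). Slc35d1, which carries UDP-glucuronate into the endoplasmic reticulum, differed by -0.86 (adjusted p = 0.0218); Ugdh, Ugp2, Slc35d1 and Slc35d2 were named after their values had been seen. Pgm2 rose, at 56.4, 64.9, 60.5 and 68.3 CPM under shear stress, against 32.3, 48.5, 21.8 and 40.7 CPM in static cells (0.80 ± 0.21, adjusted p = 0.0119). Of 9 tested genes for the sulfate donor PAPS 1 fell, Suox, which oxidises sulfite to sulfate (-0.38 ± 0.14, adjusted p = 0.042), and 0 rose. The paired fit added Cdo1, named for that reason, as lower (adjusted p = 0.00628).

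For glutathione, 4 of 12 tested genes fell and 1 rose (median -0.17), and 5 fell and 2 rose in the paired fit, which added Chac1 as lower (adjusted p = 0.0104) and Acy3 as higher (adjusted p = 0.0244). Gclc, the catalytic subunit of the rate-limiting ligase, had 1199, 1149, 1037 and 891 CPM in shear stress replicates 1 to 4, against 2872, 3113, 3447 and 2751 CPM in static replicates 1 to 4. The groups were far apart, and the difference was -1.51 ± 0.13, adjusted p = 5.5e-05, larger than that of any GST gene. Its modifier subunit Gclm (-0.92, adjusted p = 0.000241) and the synthetase Gss (-0.74, adjusted p = 0.00123), both named after their values had been seen, also fell. Ggct, which breaks down gamma-glutamyl peptides, rose to 21.7 ± 7.73 CPM under shear stress, against 3.84 ± 0.777 CPM in static cells (SD, n = 4 each; 2.49 ± 0.29, adjusted p = 0.000204).

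Among 13 tested conjugation enzymes outside the 4 families, 2 fell and 1 rose, and the median was -0.41. In the paired fit 8 fell and 1 rose, the 6 added being Gnmt, Baat, Acsm5, Tpmt, Inmt and Glyat, with adjusted p between 5.44e-05 for Gnmt and 0.0241 for Tpmt. The arylamine acetyltransferase Nat2 rose to 17.1, 20.7, 21.2 and 23.4 CPM under shear stress, against 5.67, 9.02, 6.44 and 7.56 CPM in static cells (1.52 ± 0.17, adjusted p = 0.00017). Acsm3, a medium-chain acyl-CoA synthetase, fell (-0.91 ± 0.19, adjusted p = 0.00372). A list drawn up for the removal of conjugates held 7 tested genes, but not all of them, Klb among these, are known to remove conjugates. Of the 7, 1 rose, Abhd10, which cleaves acyl glucuronides (1.10 ± 0.13, adjusted p = 0.00025), and 1 fell, the carboxylesterase gene Ces1g (-0.66 ± 0.19, adjusted p = 0.0184). The sulfatase genes Arsa and Arsg were higher in the paired fit alone (adjusted p = 0.0157 and 0.0237).

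Of 18 other tested genes that answer to AHR or NRF2, 4 fell and 3 rose (median -0.25), and 9 fell and 3 rose in the paired fit. Cyp1a1, a classic target of AHR, rose to 109, 150.1, 52.9 and 173 CPM in shear stress replicates 1 to 4, against 2.71, 2.27, 2.35 and 3.18 CPM in static replicates 1 to 4 (5.52 ± 0.39, adjusted p = 4.79e-05). Ugt1a6a and Ugt1a6b, conjugation genes known to answer to AHR in mice, differed by -0.57 and -0.60 in the same libraries (adjusted p = 0.0953 and 0.0625, and 0.000337 and 9.59e-05 in the paired fit). Txnrd1, a thioredoxin reductase driven by NRF2, was 1 of the 4 that fell (-0.44 ± 0.10, adjusted p = 0.0068). Nqo1 was 1 of the 3 that rose (0.45 ± 0.17, adjusted p = 0.0457, and 0.00845 in the paired fit). It was named after its values had been seen.

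Of 27 tested regulators of these genes 13 fell and 4 rose, the median was -0.45, and 14 fell and 5 rose in the paired fit. Bcl6, a repressor that shapes sex-dependent gene expression in liver, had 20.3, 14.9, 11.3 and 11.6 CPM under shear stress, against 58.2, 80.1, 73.1 and 43.3 CPM in static cells (-2.13 ± 0.24, adjusted p = 0.000204). Maff, a small MAF partner of NRF2, had 41.2 ± 4.37 CPM under shear stress and 130.0 ± 29.9 CPM in static cells (SD, n = 4 each; -1.66 ± 0.17, adjusted p = 0.000109). Nfe2l2, which encodes NRF2, and Ahr and Hnf4a passed in neither fit (0.20, 0.16 and 0.13; unpaired adjusted p = 0.267, 0.659 and 0.59), and these 3 were named after their values had been seen.

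Markers of cell types were summed in each library, and their part in the differences above was not tested. As the background to each marker count, 23.7% of all tested genes fell and 24.9% rose. In the paired fit 31.0% fell and 30.1% rose. Of all tested genes of at least 50 CPM, 36.7% fell, and 49.0% in the paired fit. The 11 hepatocyte markers, all detected, came to between 47544 and 63250 CPM under shear stress and between 69960 and 89860 CPM in static cells, and 7 of 11 fell (10 in the paired fit). The sum of 5 cholangiocyte markers was between 239 and 1735 CPM under shear stress and between 146 and 1332 CPM in static cells. In that sum replicate 2 was lowest and replicate 1 highest in both groups, as in the endothelial sum given below. In the hepatocyte sum replicate 4 was lowest and replicate 3 highest in both groups. In the macrophage sum replicate 3 was lowest and replicate 1 highest in both groups. For stellate and lymphocyte markers the lowest replicate differed between the groups. Among the 46 members, replicate 2 was lowest in both groups for 23, where this held for 11.8% of all tested genes. Replicate 1 was highest in both for 10 members and replicate 3 for 16, where this held for 10.4% and 12.8%. Of the 5 cholangiocyte markers 4 were tested, and 1 rose in the unpaired fit and 3 in the paired fit. Spp1, the most abundant of them, had 1641, 169, 586 and 736 CPM under shear stress, against 1253, 55.9, 601 and 447 CPM in static cells, while Krt19 stayed at or below 0.34 CPM in every library. The 8 stellate and fibroblast markers summed to between 7.04 and 9.97 CPM under shear stress and between 5.76 and 11.98 CPM in static cells, with 0 called and 1, Dcn, lower in the paired fit (adjusted p = 0.022). The 8 endothelial markers summed to between 8.35 and 26.5 CPM under shear stress and between 12.04 and 25.0 CPM in static cells, and 1, Pecam1, fell, while Oit3 was higher in the paired fit alone (adjusted p = 0.00485). The 7 macrophage markers summed to between 16.8 and 56.7 CPM under shear stress and between 22.4 and 55.9 CPM in static cells, with 0 called and 6 of 7 below 1 CPM. The 4 lymphocyte markers summed to between 0.115 and 0.626 CPM under shear stress and between 8.70 and 11.7 CPM in static cells, and Cd79a and Cd79b fell. Krt7, Cftr, Vsig4, Cd3e and Nkg7 were on the marker lists but not analysed here, and none of the markers analysed was at 0 in all 8 libraries.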

How the data were processed

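RNA-seq libraries of 4 shear stress and 4 static hepatocyte samples were grouped by their titles. TRIzol was used for total RNA and phi29 reagents for the libraries, per the labels' protocols, and sequencing was on DNBSEQ. The submitters' processing notes name HISAT, Bowtie2, RSEM and the build GRCm38 (mm10); versions, annotation and strand setting: not given in the sources used here. The deposited read counts are expected counts, which need not be whole (between 9.31% and 10.7% per library were not, tolerance 1e-09), so reads shared by near-identical genes were divided by estimation. The authors also deposited TPM, used here to compare levels between genes, and FPKM, used for 1 alternative (limma 3.58.1 on log2 of FPKM + 0.1).

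Expected counts were rounded, filtered with filterByExpr, scaled with TMM factors and tested with the quasi-likelihood test of edgeR 4.0.16 in R 4.3.3 (robust), with Benjamini-Hochberg adjustment over 11747 genes and 0.05 as threshold. A standard error is the size of the log2 difference over the root of F. Libraries with the same replicate number correlated at r = 0.679, 0.642, 0.56 and 0.467 over 8446 genes after removal of group means, and different numbers at no more than -0.0178, so the numbers pair the libraries. The numbers are those of the titles; the deposited files are numbered differently. Blocking on the number lowered the biological coefficient of variation to 0.125, against 0.214 without it. Within a group any 2 libraries differed by more than counting noise (chi-square over its degrees of freedom at least 45.2). The procedure was tested on simulated data.

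The members and lists were chosen with earlier results of these data known. The naming rule took, in each class, up to 4 called ones with at least 1 CPM and no overlap between groups, by size of difference, and the most abundant one, with all their values. Sult2a8, Sult1d1, Ugt1a5, Ugt1a7c and Gstp3 are given with all values too, chosen after these were seen. Of each list, up to 2 called genes by smallest p were named; genes named for a call in the paired fit alone, and Sult2a7, were chosen after their values were seen. Alternatives were the block, RLE and upper quartile factors, library totals, DESeq2 1.42.0, other filters, FPKM and each library left out. The test of the replicate number and the sums over genes that share reads were added after seeing the data. Promoters and identities come from RefSeq tables of GRCm38.p6 and GENCODE transcripts of the same build, and all 60 members matched the former by gene ID. Identities of open reading frames and promoters were computed with Biopython 1.88, and 53 members had a promoter. Some genes of the lists and of the rule for named genes are not reported here.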

Additional observations from a re-analysis of the deposited data

Results flagged for a closer look

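In groups of 4, a library was marked when its gap to the nearest other library was large for the range of the group (Dixon's criterion). Of 34 groups checked, both groups of the 17 members that the naming rule picked, 3 were marked, and chance marks about 1 in 20. Gsta3 had 189 CPM in shear stress replicate 4, against 235 to 242 CPM in the other 3 shear stress libraries. Gstp2 had 14.9 CPM in shear stress replicate 1, against 17.9 to 18.5 CPM in the other 3. Gstk1 had 44.0 CPM in static replicate 3, against 33.9 to 35.3 CPM in the other 3 static libraries. All 3 genes were called with each of the 8 libraries left out in turn.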

How the results depend on the processing

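With RLE factors, DESeq2, no filter and a filter of at least 1 CPM, the counts of members that fell (17, 21, 14 and 16) stayed within 1.5 times that of the unpaired fit, and upper quartile factors gave 12, of them 3 GST and 0 MGST genes. The replicate block gave 32 members lower (16 UGT, 2 SULT and 13 GST genes) and 2 higher (1 UGT and 1 GST gene). It added a call to 5 of the 17 members that the naming rule picked and ended none. Library totals gave 6 members lower (4 UGT, 1 GST and 0 MGST genes) and 1 GST gene higher, with 1539 of all tested genes lower and 4157 higher, against 2783 and 2924 with TMM factors. FPKM gave 8 members lower (4 UGT, 2 SULT, 2 GST and 0 MGST genes; the SULT genes were Sult2a7 and Sult2a8) and 1 GST gene higher, with 1683 of all tested genes lower and 4278 higher. The cause of these shifts was not tested. Leaving out 1 library at a time gave between 11 and 19 members lower and between 0 and 1 higher, with UGT genes lower between 6 and 13, SULT genes between 1 and 2, GST genes between 4 and 7 (higher between 0 and 1) and MGST genes between 0 and 2. Of the 16 members that fell, 10 kept their call in all 8 of these fits and Gsto1, Mgst1, Ugt1a1, Ugt2a3, Ugt2b5 and Ugt3a2 lost it in at least 1. Of the 17 members that the naming rule picked, Gsta1 changed direction without static replicate 1 (log2 difference 0.059, where the 8 such fits ranged from -0.84 to 0.059) and Gstp1 with library totals (0.0075). Other members changed direction too. Of the 46 tested, 5 lay above 0 in the unpaired fit and 10 with library totals. With 1 library left out, the number above 0 was between 4 and 9. The 14 members not tested had at most 10.9 counts in a library, and the division of reads limits Ugt1a, Gsta1 and Gsta2, Gstp1 and Gstp2, and Ugt2b5 and Ugt2b38.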
